A study of Homo sapiens with 10 samples.

Results

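The comparison described here set tumour T6 against the parental cells it was grown from, over all named genes, and asked in which genes T6 also stood apart from 3 other tumours of the same kind. All arrays measured total RNA of MDA-MB-231, an established human breast cancer line of the triple-negative kind. The members were chosen by sample title alone: 2 arrays of T6 and 2 of the parental line, 4 of the 10 arrays of the series. The parental cells were grown in culture without treatment and are labelled sensitive to SM-164. T6 was 1 xenograft in a SCID mouse, a strain without working T and B cells. It shrank while SM-164 was injected into a vein at 5 mg/kg on 5 days a week for 2 weeks, and it grew back after dosing stopped. RNA came from tumour cells isolated from that regrown tumour. T6 is labelled as still sensitive to the drug, as is T8, while T2 and T3, treated alike, are labelled resistant. No xenograft grown without SM-164 is among the groups, so growth in the mouse, the drug, the regrowth and the isolation of the cells cannot be told apart in any difference from parental cells.

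SM-164 is a Smac mimetic. Such compounds imitate the mitochondrial protein Smac, which binds inhibitor of apoptosis proteins (IAPs). The cellular IAPs are ubiquitin ligases at the TNF receptor that keep its signalling on the NF-kB and survival side, and XIAP blocks caspases directly. Loss of the cellular IAPs lets TNF drive a death complex of RIPK1, FADD and caspase-8. MDA-MB-231 cells look mesenchymal and invade readily.

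Values are log2 expression levels from Affymetrix arrays, so a difference of 1 is a doubling, and a level near log2 5 lies near background. For T6, 14182 and 14247 genes reached log2 5, and over the 10 arrays the number ran from 14096 to 14640. The T6 arrays correlated at 0.998 with each other over genes and at 0.978 to 0.983 with parental arrays. Genes are not independent replicates, and this correlation is a description. Nothing in the labels tells whether both arrays of a line stem from different cultures or tumour pieces, so p-values reflect the spread of 2 arrays, possibly only technical. All 9 genes chosen as known to be high in MDA-MB-231 were high in T6, between 10.2 (ZEB1) and 14.3 (VIM), although 5 fell and 2 rose (median -0.22). Of 8 tested genes known to be low, ESRP1 (4.73) and CDH1 (5.33) lay near background in T6, but ERBB2 (9.11), EPCAM (8.52) and GATA3 (8.23) did not. Only GATA3 differed from parental cells (-0.59; median of the 8 -0.08).

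Of 14929 genes tested, 5149 (34.5%) differed between T6 and parental cells at a Benjamini-Hochberg adjusted p under 0.05 in limma, which is what "called", "rose" and "fell" mean below. Higher in T6 were 3097 genes (20.7%) and lower 2052 (13.7%), and the median over all genes tested was -0.01. Most changes were small: the median size among called genes was 0.43, and 301 genes (2.02%) rose and 121 (0.811%) fell by log2 1 or more. Levels on the T6 and parental arrays did not overlap in 10649 genes (71.3%), more genes than were called. The split of the calls depended on scaling, with 60.1% of calls upward as deposited, 47.5% after repeated quantile normalisation and 71.5% after centring the arrays on their medians. The count also rested on single arrays: it was 3255 without T6 replicate 1, 3299 without T6 replicate 2 and 3422 without parental replicate 2.

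The largest rise was in WDR72, a WD-repeat protein known from tooth enamel formation. Its level was 5.89 and 5.50 on the parental arrays and 9.85 and 9.85 on the T6 arrays. The difference was 4.15 ± 0.13 (2 arrays against 2, SE from the spread pooled over all 10 arrays, adjusted p = 1.62e-11). Both parental arrays lay near background and both T6 arrays far above it. MMP1, the interstitial collagenase, read 9.22 and 8.995 in parental cells and 13.28 and 13.17 in T6, where it was among the brightest genes (4.12 ± 0.07, adjusted p = 3.99e-14). EREG, the EGF family ligand epiregulin, went from 7.92 and 7.57 to 11.75 and 11.40 (3.83 ± 0.14, adjusted p = 7.25e-11). The urea transporter gene SLC14A1 read 5.62 and 5.25 in parental cells and 9.25 and 9.21 in T6 (3.80 ± 0.13, adjusted p = 5.8e-11). The genes with the largest changes were picked among called genes whose T6 and parental arrays did not overlap, as in 71.3% of all genes. Nothing is read from their separation. DCDC2, a doublecortin-domain protein of cilia, stood at 4.68 and 4.64 in parental cells, below the usual floor, and at 8.20 and 8.03 in T6 (3.45 ± 0.13, adjusted p = 8.38e-11). The other tumours were not alike in this gene, at 7.55 and 7.87 in T2, 4.75 and 4.75 in T3 and 5.51 and 5.57 in T8.

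Further rises covered several functions. KYNU, kynureninase of tryptophan breakdown, rose by 3.45; KISS1, the precursor of the kisspeptin peptides and first known as a metastasis suppressor, by 3.39. SEL1L3 rose by 3.32 and TAGLN, the actin-binding protein transgelin of smooth muscle, by 3.23. BCL2A1, an anti-apoptotic BCL2 relative, was at 3.67 and 3.67 in parental cells and 6.82 and 6.58 in T6, a difference of 3.03 ± 0.14 from a level at background. GMFG, an actin regulator of blood cells, rose by 3.01 and AK5, an adenylate kinase best known in brain, by 2.99. KISS1 read 7.97 and 7.91 on the parental arrays and 11.28 and 11.38 on the T6 arrays. Standard errors of the 24 genes with the largest changes ran from 0.07 to 0.18, and their adjusted p-values from 3.99e-14 to 4.08e-08. The size of some depended on the probe set. TAGLN differed by 0.03 and was not called when probe sets marked as less specific were left out. When all probe sets of a gene were averaged the rise was 1.55 for WDR72, 1.42 for SEL1L3, 1.72 for DCDC2, 2.29 for KYNU and 2.45 for EREG, all still called.

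SERPINA1, the protease inhibitor alpha-1 antitrypsin, fell furthest, from 9.45 and 9.27 on the parental arrays to 5.30 and 5.40 on the T6 arrays (-4.01 ± 0.15, adjusted p = 9.8e-11). That took it from a clear signal to near background. CEMIP, a hyaluronan-degrading protein, read 10.97 and 10.97 and then 7.92 and 7.68 (-3.17 ± 0.15, adjusted p = 1.24e-09). OLFML2A, a secreted olfactomedin-like protein, went from 9.96 and 9.96 to 7.02 and 6.93 (-2.99 ± 0.11, adjusted p = 6.13e-11). CYP1B1, a cytochrome P450 induced through the aryl hydrocarbon receptor, dropped from 11.88 and 11.85 to 8.96 and 8.96 and so stayed well expressed (-2.90 ± 0.08, adjusted p = 2.2e-12). AKR1C3, an aldo-keto reductase of steroids and prostaglandins, and AQP1, a water channel, differed by -2.88 and -2.87. STMN3, a microtubule regulator (-2.82), ADGRF1, an adhesion G protein-coupled receptor (-2.64), and CST6, the protease inhibitor cystatin E/M (-2.61), followed. HLA-DRA (-2.76), HLA-DPA1 (-2.71) and CD74 (-2.69) complete the 12 and belong to antigen presentation, described further on. Averaged over all probe sets, the differences were -2.24 for SERPINA1, -2.10 for CEMIP, -1.58 for ADGRF1, -1.51 for CST6 and -1.45 for CD74.

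**Figure D1:**
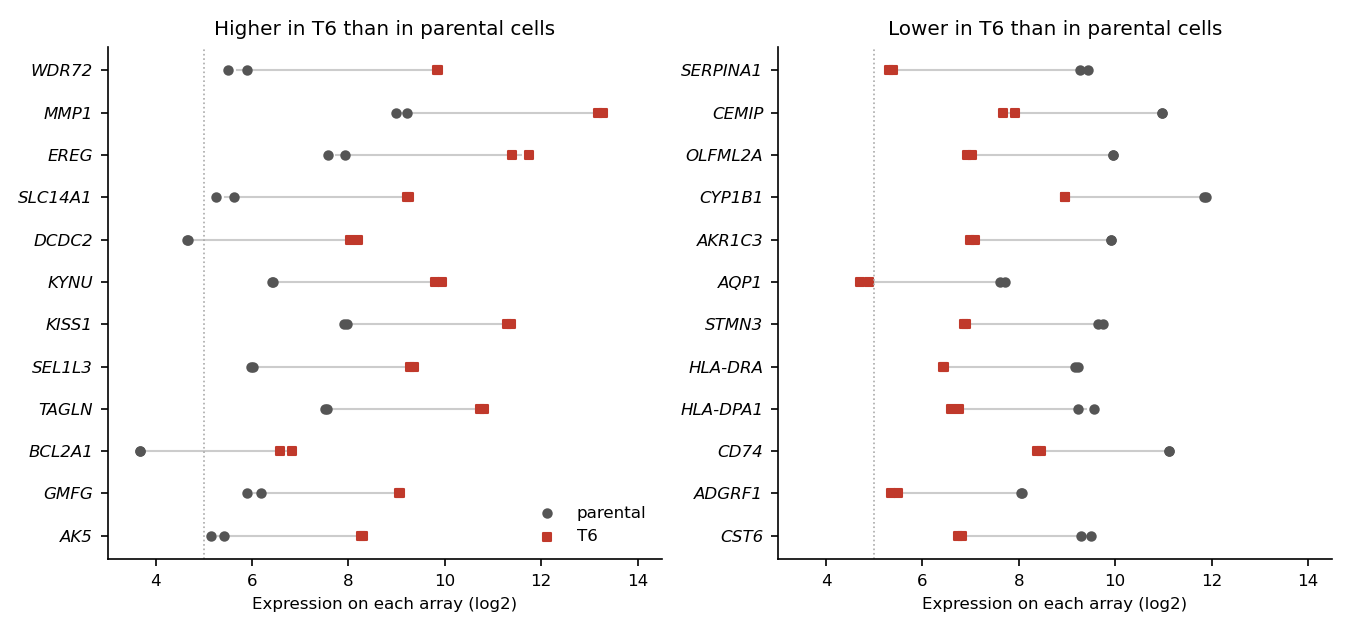
Expression (log2, horizontal axis) of the 12 genes with the largest rise and the 12 with the largest fall in T6, one point per array, parental as circles and T6 as squares, joined at the means. The dotted line marks log2 5. The genes were picked among those in which the arrays of the 2 lines lie apart. SERPINA1 and AQP1 end near or below the dotted line in T6.

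Tumours T2, T3 and T8 share the parental arrays with T6, so their own differences from parental cells are given beside those of T6 and are not independent of them. In T2, T3 and T8, MMP1 differed by 4.76, 4.85 and 4.33, KISS1 by 2.71, 3.20 and 4.16, and SERPINA1 by -3.59, -3.73 and -2.84. For WDR72 the values were 4.44, 1.46 and 2.21, and for KYNU 3.28, 1.04 and 2.28. Tested directly against the mean of the 3 other tumours, T6 was higher in WDR72 by 1.45, in KYNU by 1.25 and in EREG by 0.92, and lower in MMP1 (-0.53, adjusted p = 5.57e-05) and SERPINA1 (-0.62, adjusted p = 0.00482).

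IAP genes and their antagonists differed by small amounts. BIRC2, which encodes cellular IAP1, rose from 12.27 and 12.22 to 12.49 and 12.53 (0.26 ± 0.06, adjusted p = 0.00263), and its arrays did not overlap. XIAP read 9.86 and 9.46 in parental cells and 9.95 and 9.81 in T6, with overlap, and did not pass the test (0.22 ± 0.12, adjusted p = 0.192), though it was called without parental replicate 1. BIRC3 and RIPK1 were not analysed here. Of 10 tested IAPs and antagonists, 4 rose (40%) and 1 fell (10%), with a median of 0.21. Counts of this and the later lists are to be read beside 20.7% higher and 13.7% lower among all genes tested. The antagonists DIABLO, which is Smac itself, and HTRA2 rose by 0.38 and 0.48, BIRC7 (livin) by 0.51 near background, and XAF1, a partner of XIAP, fell (-0.62). In T2, T3 and T8 BIRC7 differed from parental cells by -0.07, 0.02 and -0.02, and it is among the T6-distinct genes described below.

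Of the TNF receptor complex and the necrosome, 24 genes were tested, with a median of 0.04. Of these, 5 rose (20.8%, beside 20.7% of all genes) and 2 fell (8.33%, beside 13.7%). TNF itself lay near background at 4.89 and 4.82 in parental cells and 4.67 and 4.88 in T6 (-0.08, adjusted p = 0.721). Its receptor TNFRSF1A (-0.09, adjusted p = 0.274) and the caspase-8 inhibitor CFLAR (0.07, adjusted p = 0.497) did not pass the test, though TNFRSF1A was called lower after repeated quantile normalisation. CASP8 read 8.76 and 8.38 in parental cells and 8.84 and 8.73 in T6, with overlap (0.22 ± 0.12, adjusted p = 0.189), and was called without parental replicate 1. The feedback inhibitor TNFAIP3 (A20) rose by 1.23, the necroptosis effector MLKL by 0.85 and RBCK1, a part of the linear ubiquitin ligase, by 0.46. The second TNF receptor TNFRSF1B fell, from 6.85 and 6.53 to 5.47 and 5.60 (-1.15), and so did TAB3, an adaptor of the kinase TAK1 (-0.63). Against the mean of the other tumours T6 was higher in CASP8 by 0.38 (adjusted p = 0.0256) and in CFLAR by 0.25 (adjusted p = 0.0135).

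Among 13 death ligands and receptors, 6 rose and 2 fell, with a median of 0.00. The death ligand TRAIL, TNFSF10, was 10.21 and 10.08 in parental cells and 7.96 and 7.78 in T6 (-2.28 ± 0.10, adjusted p = 5.74e-10), with clear separation. In T2, T3 and T8 it differed from parental cells by -2.42, -2.31 and -2.82. The decoy receptors TNFRSF11B (1.13) and TNFRSF10D (1.12) rose, as did the lymphotoxin receptor LTBR (0.48), and the TWEAK receptor TNFRSF12A fell (-0.25). In the BCL2 family, 6 of 20 rose and 1 fell (median 0.04). Besides BCL2A1 these were led by BCL2L15 (0.59) and the BH3-only gene BIK (0.54), while the pore-forming BAX fell (-0.52), a call lost without parental replicate 2 or either T6 array. Of 12 caspases and apoptosome genes 4 rose and 2 fell (median 0.06). The inflammatory caspases CASP4 and CASP1 rose by 1.22 and 0.76 and the apoptosome scaffold APAF1 by 0.76. CASP2 (-0.83) and PYCARD, the inflammasome adaptor ASC (-0.81), fell. The rise of CASP1 was 0.37 without parental replicate 2, and that of APAF1 0.37 when probe sets were averaged.

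NF-kB targets were higher more often than genes at large. Of 27 tested, 14 rose and 3 fell against 20.7% and 13.7% of all genes, and the median was 0.27 against -0.01. BCL2A1 led, then the neutrophil chemokine CXCL3, from 5.96 and 4.98 to 7.55 and 7.46 (2.03 ± 0.22), and PTGS2, the inducible cyclooxygenase, from 4.07 and 3.997 to 6.06 and 6.07 (2.03 ± 0.12). The parental arrays of CXCL3 lay far apart, and PTGS2 began below the floor. Probes of CXCL3 may also read the near-identical CXCL1 and CXCL2, and PTGS2 rose by 1.29 with probe sets averaged. IRF1 (-0.67), the chemokine CCL5 (-0.62) and the adhesion molecule VCAM1 (-0.52) fell, the last near background and not called without any 1 of the 4 arrays. Against the mean of the other tumours 6 of the 27 were higher in T6 (22.2% beside 5.34% of all genes). In that comparison 2 were lower (7.41% beside 4.29%), and the median was 0.07. Called higher than parental cells and also than each of T2, T3 and T8 was 1 of the 27. T6 was lower than the mean of the other tumours in PTGS2 (-1.26, adjusted p = 2.22e-06), where T3 differed from parental cells by 5.11.

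Antigen presentation genes were lower in T6. Of 17 tested class I genes 15 fell (88.2% against 13.7% of all genes) and the other 2 were not called (limma; at an unadjusted p under 0.05, 16 lower and 0 higher). The median was -0.51. HLA-B, a classical class I heavy chain, read 14.13 and 14.13 in parental cells and 13.03 and 13.09 in T6 (-1.07 ± 0.06, adjusted p = 2.71e-09). The immunoproteasome subunits PSMB9 and PSMB10 fell from 10.68 and 10.77 to 9.53 and 9.62 (-1.15) and from 9.53 and 9.50 to 8.51 and 8.55 (-0.99). Heavy chain genes are near-identical, so probe sets of one can read another. Of 12 class II genes 8 fell, the rest did not pass, and the median was -0.89. HLA-DRA went from 9.23 and 9.17 to 6.44 and 6.44, HLA-DPA1 from 9.56 and 9.22 to 6.76 and 6.60, and CD74, the invariant chain, from 11.11 and 11.11 to 8.37 and 8.47. These genes are among the 12 largest falls, which were picked from genes whose T6 and parental arrays did not overlap. CIITA, the class II transactivator, lay at 6.16 in parental cells and 5.90 in T6 and did not pass the test (-0.26, adjusted p = 0.231; named after its value was seen). Against the mean of the other tumours the medians of these lists were 0.03 and 0.03, and HLA-DPA1 was higher in T6 by 0.88 (adjusted p = 0.000409).

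The interferon response was split. Of 36 tested genes 7 rose and 15 fell, and the median was -0.14. The 2',5'-oligoadenylate synthetase OAS1 rose by 1.66, the membrane restriction factor IFITM1 by 0.62 and the transcription factor IRF7 by 0.38. SAMD9L (-1.71), the antiviral enzyme RSAD2 (-1.11) and SAMD9 (-1.03) fell. Against the mean of the other tumours 9 of the 36 were higher in T6, 25.0% beside 5.34% of all genes, with a median of 0.16. Called higher than parental cells and also than each of T2, T3 and T8 were 0 of the 36. OAS1 was higher than the mean of those tumours by 0.68 and RSAD2 by 0.43. RSAD2 in T6 thus stood below parental cells yet above that mean.

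Of the ERBB genes 4 ligands were called and the 3 receptors tested were not. EGFR read 10.68 and 10.71 in parental cells and 10.64 and 10.65 in T6 (-0.05 ± 0.08, adjusted p = 0.653), but was lower in T6 than in the other tumours on average (-0.38, adjusted p = 0.00114). Of 12 ERBB receptors, ligands and regulators 4 rose and 2 fell (median 0.01). EREG led, NRG1, which encodes neuregulin 1, rose from 10.87 and 10.84 to 11.59 and 11.56 (0.73), and HBEGF by 0.33. TGFA (-0.62) and the receptor regulator LRIG2 (-0.34) fell. The NRG1 difference was 0.16 and not called without the less specific probe sets. LRIG1, a negative regulator of EGFR family receptors, read 7.63 and 7.40 in parental cells and 7.73 and 7.42 in T6, with overlap (0.06 ± 0.14, adjusted p = 0.775), while in T2, T3 and T8 it differed from parental cells by -0.97, -0.69 and 0.29. T6 was above the mean of these tumours by 0.52 (adjusted p = 0.0112). Of 30 other receptor tyrosine kinases 2 rose and 4 fell (median -0.05): PTK7 (0.82) and IGF1R (0.47) against EPHB6 (-0.62), EPHB4 (-0.43), ROR1 (-0.36) and AXL. The calls of IGF1R and EPHB6 were lost without single arrays.

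Of 25 genes of ERK output and feedback 9 rose and 6 fell (median 0.02). The phosphatase gene DUSP1 went from 9.97 and 9.999 to 11.93 and 11.95 (1.95 ± 0.06) and the immediate early factor EGR1 from 7.71 and 7.63 to 9.11 and 9.18 (1.48 ± 0.08). With probe sets averaged DUSP1 rose by 1.25. DUSP6, the ERK phosphatase, rose by 0.67, or 0.39 without parental replicate 2. The ETS factors ETV1 (-0.64) and ETV5 (-0.36) and the cyclin CCND1 (-0.29) fell. EGR1 was lower in T6 than in the mean of the other tumours on average (-1.04, adjusted p = 4.05e-07), and 7 of the 25 genes were lower in that comparison, beside 4.29% of all genes, and the others were not called.

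Genes known from metastatic sublines of this cell line made up the list with the largest median, 1.54. Of 25 tested 18 rose (72.0% against 20.7%) and 4 fell. Against the mean of the other tumours the median of the list was -0.06. In that comparison 5 were higher in T6 (20.0% beside 5.34% of all genes) and 5 lower (20.0% beside 4.29%). MMP1, EREG and KYNU led the rises. ADIRF (-2.41), VCAM1 and ID3 (-0.43) fell. SPARC, a secreted glycoprotein of the matrix, went from 4.87 and 4.83, at background, to 7.24 and 6.99 (2.26 ± 0.15, adjusted p = 2.29e-08). With probe sets averaged the rise was 1.22. SPARC differed from parental cells by 0.48 in T2, 0.14 in T3 and 1.94 in T8, and was higher in T6 than in their mean by 1.41 (adjusted p = 3.72e-06). ROBO1, a Slit receptor on this list, went from 6.49 and 6.38 to 9.34 and 9.16 (2.81 ± 0.11).

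Matrix and adhesion genes went both ways. Of 17 matrix metalloproteinases and TIMPs 3 rose, MMP1, MMP3 (1.41) and, near background, MMP10 (0.81). Falls numbered 6, among them TIMP3 (-1.09) and TIMP1 (-0.66), inhibitors of these enzymes, and the median was -0.26. The 3 that rose were lower in T6 than in the mean of the other tumours (MMP1 -0.53, MMP3 -1.34, MMP10 -0.45), and 0 of the 17 were higher in that comparison. MMP25 (-0.51) turned to 0.24 without the less specific probe sets. Of 19 matricellular genes 4 rose, SPARC, the thrombospondin THBS2 (1.23) and CCN3 (0.94) at the head, and SPOCK1 fell (-0.40; median of the list -0.05). Collagens numbered 3 up and 7 down of 20 (median -0.11), with the basement membrane chains COL4A1 (0.85) and COL4A2 (0.19) and COL12A1 (0.66) up and COL5A1 (-1.20), COL18A1 (-0.67) and COL1A2 (-0.50) down. The 3 collagen VI chains, named after their values were seen, differed from parental cells by -0.43 (COL6A1), -0.39 (COL6A2) and -0.31 (COL6A3). They were above the mean of the other tumours by 0.59, 0.67 and 0.54. The COL4A2 call was lost without any 1 of the 4 arrays and under both other scalings.

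Integrins and laminins had 7 up and 7 down of 25 (median 0.01): LAMA1 (0.94), ITGB2 (0.73) and LAMB1 (0.72) rose, and ITGB4 (-0.96), LAMB3 (-0.68) and ITGB5 (-0.66) fell. ITGB4 and LAMB3 encode parts of hemidesmosomes and their ligand. Of 24 cadherins 4 rose and 4 fell (median -0.14). The protocadherin PCDH7 went from 6.35 and 5.95 to 8.43 and 8.40 (2.27 ± 0.13), FAT3 rose by 1.26 and CDH5 by 0.68 below the floor, and FAT4 (-1.31), CDH11 (-0.99) and PCDH1 (-0.55) fell. Of 15 mesenchymal markers 3 rose, SPARC, FBN1 (1.04) and VIM (0.18), and 5 fell, led by S100A4, from 13.12 and 13.05 to 11.02 and 10.99 (-2.08 ± 0.07), the repressor SNAI2 (-1.24) and the receptor AXL (-0.33); the median was -0.03. Of 23 epithelial markers 3 rose and 4 fell (median 0.01). The tight junction genes CLDN1 (1.30) and OCLN (1.11) rose, and KRT80 (-0.66), CLDN4 (-0.38) and JUP (-0.32) fell. KRT19 differed by 0.18, and by -0.075 when its probe sets were averaged.

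Hypoxia and glycolysis genes rose in the majority, with a median of 0.19. Of 32 tested, 18 rose (56.2%, beside 20.7% of all genes) and 3 fell (9.38%, beside 13.7%). ENO2, an enolase, went from 10.50 and 10.49 to 11.73 and 11.63 (1.19 ± 0.06, adjusted p = 2.09e-09). The vasodilator peptide gene ADM rose by 1.11 and hexokinase HK2 by 1.03, or 0.41 with probe sets averaged. VEGFA, an angiogenic factor and hypoxia target, fell from 11.53 and 11.56 to 10.99 and 10.88 (-0.61 ± 0.08), as did NDRG1 (-0.47) and PFKL (-0.24). Against the mean of the other tumours 11 of the 32 were higher in T6 (34.4% beside 5.34% of all genes) and 1 was lower. The median was 0.12 against -0.02. Called higher than parental cells and also than each of T2, T3 and T8 were 0 of the 32. ENO2 was higher by 0.77 (adjusted p = 3.37e-07) and VEGFA by 0.30 (adjusted p = 0.00671). The others named here after their values were seen were the kinase PDK1 (0.65), the oxygen sensor EGLN3 (0.69), the carbonic anhydrase CA12 (0.59) and the glucose transporter SLC2A3 (0.58).

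Unfolded protein and amino acid stress genes numbered 10 up and 7 down of 33 (median -0.07). The cystine transporter SLC7A11 (0.83), the chaperone cofactor SDF2L1 (0.61) and MTHFD2 (0.58) rose. ASNS, asparagine synthetase and a target of ATF4, fell from 10.73 and 10.72 to 9.45 and 9.56 (-1.22 ± 0.07), with CTH (-0.66) and SLC7A5 (-0.57). ASNS was below the mean of the other tumours (-0.62, adjusted p = 1.28e-05), though T2 also differed from parental cells by -1.37. Of 17 cholesterol synthesis genes 9 rose and 3 fell (median 0.22): STARD4 (0.98), HMGCS1 (0.57) and DHCR7 (0.56) up, EBP (-0.88), LSS (-0.51) and PMVK (-0.20) down. Of 18 NRF2 targets 3 rose, SLC7A11, PGD (0.44) and GCLM (0.35), and 9 fell, led by AKR1C3, AKR1C1 (-1.39) and AKR1C2 (-1.25), with a median of -0.22. These aldo-keto reductases are near-identical, and AKR1C1 differed by -0.11, uncalled, without the less specific probe sets. PGD differed by 0.02, uncalled, with probe sets averaged.

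TGF-beta genes had 10 up and 8 down of 29 (median 0.05). The helix-loop-helix inhibitor ID2 went from 6.15 and 6.12 to 8.92 and 8.92 (2.79 ± 0.12), the activin subunit INHBA from 6.36 and 6.69 to 8.98 and 8.94 (2.44 ± 0.10), and the activin antagonist FST rose by 1.41. BMP4 (-0.80), ID3 and ID1 (-0.38) fell. Against the mean of the other tumours 9 of the 29 were higher in T6 (31.0% beside 5.34% of all genes). In that comparison 1 was lower (3.45% beside 4.29%), with a median of 0.15. Called higher than parental cells and also than each of T2, T3 and T8 were 0 of the 29. Of 19 YAP and TEAD targets 10 rose (52.6%, beside 20.7% of all genes) and 1, AXL, fell (median 0.20). ANKRD1 (1.04), CRIM1 (0.92) and RBMS3 (0.75) led. Against the mean of the other tumours 1 of the 19 was higher in T6 (5.26% beside 5.34% of all genes). In that comparison 4 were lower (21.1% beside 4.29%), with a median of -0.04. Of 24 Wnt genes 4 rose and 3 fell (median 0.01): LEF1 (1.08), DKK3 (0.74) and FZD6 (0.48) up, the receptors FZD7 (-0.85) and FZD1 (-0.60) and CCND1 down. Notch genes counted 2 up, HEY1 (1.01) and HES4 (0.37), and 5 down of 20, with JAG2 (-0.70), NOTCH1 (-0.65) and NOTCH2 (-0.52) furthest down (median -0.09). Of 38 axon guidance genes 7 rose and 8 fell (median -0.11). ROBO1, NTN4 (1.73) and EFNB1 (0.75) rose and PLXNA1 (-1.36), SEMA4D (-0.82) and EFNB2 (-0.48) fell. With probe sets averaged PLXNA1 differed by -0.69.

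Cell cycle and replication genes changed by small amounts: 6 of 38 rose and 11 fell (median -0.03). CENPA (0.37), CDC6 (0.27) and the kinase AURKA (0.26) were up, and MCM7 (-0.54), E2F2 (-0.52) and CENPF (-0.51) down. Of 6 drug efflux transporters 2 fell, ABCC3 (-0.58) and ABCC5 (-0.30), and the other 4 were not called (median -0.06; at an unadjusted p under 0.05, 0 were higher). Of 8 cancer-testis antigens above the filter 1 rose and 3 fell (median -0.19), all between 4.14 and 6.31 in T6. MAGEC1 rose by 0.57 to 6.22 and 6.08, beside 9.22 and 9.37 in T3 and 8.90 and 8.67 in T8. MAGEA6 (-0.80), MAGEC2 (-0.57) and SSX1 (-0.54) fell near background.

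The isolated cells could hold RNA of other cells, and host cells would be those of a mouse. Of 7 human macrophage markers tested, 3 fell: CSF1R (-0.79), ITGAM (-0.49) and LAPTM5 (-0.44). Their summed level was log2 10.48 and 10.55 on the T6 arrays against 10.88 and 10.97 on the parental arrays, most of it LAPTM5 (10.22 in T6), with CD14 at 5.70 in T6. Of 11 endothelial markers 4 rose (36.4%, beside 20.7% of all genes): ENG (1.29), ESAM (1.27), ROBO4 (0.67) and CDH5. The summed level was 11.67 and 11.75 in T6 against 10.88 and 10.81. The other 7 were not called, among them PECAM1 (7.25 and 7.08), VWF (4.99 and 4.71) and KDR (5.15 and 5.31). CDH5 and VWF stayed below log2 5. With probe sets averaged ENG rose by 0.61. Against the mean of the other tumours 1 of the 11 endothelial markers was higher in T6 (9.09% beside 5.34% of all genes) and 0 were lower. Their median in that comparison was -0.02. Of 8 fibroblast and pericyte markers COL1A2 fell, with a summed level of 9.87 and 9.88 in T6 against 10.04 and 10.05. Among 4 blood and lymphocyte markers HBB fell (-0.42), with sums of 8.50 and 8.52 against 8.63 and 8.80. The 9 adipocyte and muscle markers gave 0 calls in limma (2 at an unadjusted p under 0.05), with DES (-0.34, adjusted p = 0.102) and PLIN1 (-0.32, adjusted p = 0.103) the largest differences and sums of 9.35 and 9.34 against 9.40 and 9.51. Medians of these 5 lists were -0.22, 0.16, -0.16, -0.23 and -0.10 in that order. The part of other cells in the differences between T6 and parental cells was not tested.

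**Figure D2:**
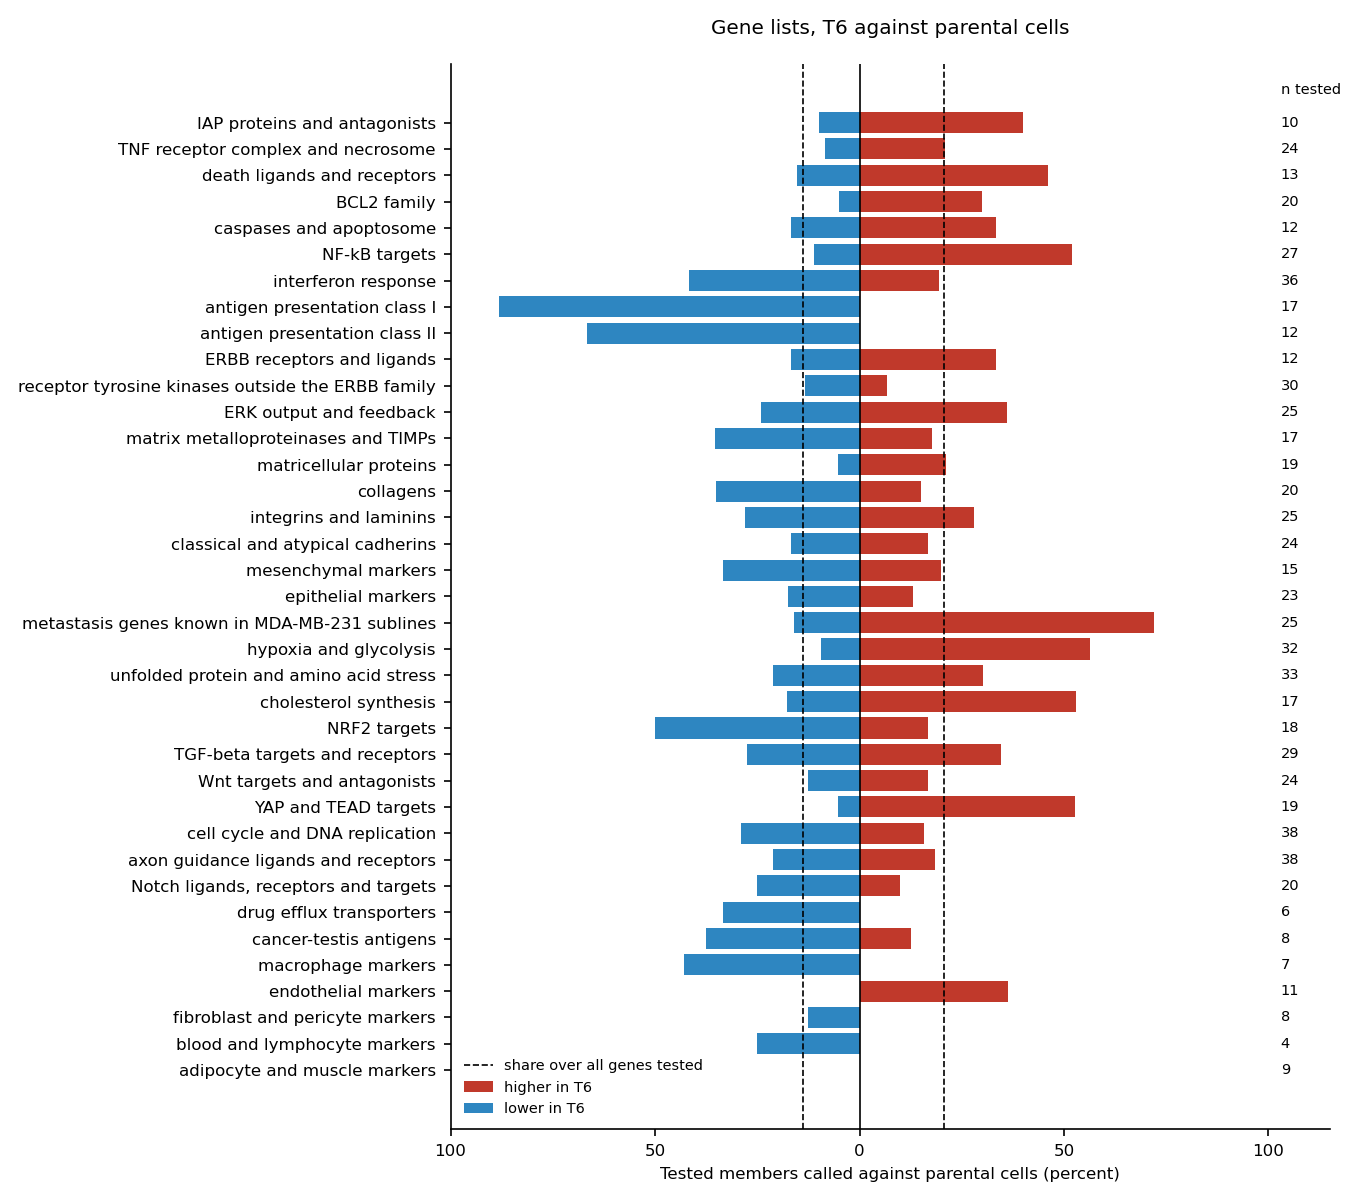
Share of the tested members of 37 gene lists called higher (right, red) or lower (left, blue) in T6 than in parental cells, in percent, with the number tested at the right edge. Dashed lines give the shares over all genes tested, 20.7% higher and 13.7% lower; class I and class II antigen presentation reach furthest left and the metastasis list furthest right.

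Across all 40 lists, 15 had a median that changed sign under another scaling of the arrays, and the largest of these medians was 0.083 in size. They include the TNF receptor complex, the BCL2 family, the caspases, the ERBB, ERK, Wnt and TGF-beta lists, the cell cycle and the mesenchymal and epithelial markers. Single calls also ended under some alternative besides a stricter threshold: they included ABCC3, ABCC5, AURKA, BCL2L15, BIRC7, CCND1, CDC6, CDH5, COL1A2, E2F2, EPHB6, ETV5, GATA3, GCLM, HBB, HES4, HMGCS1, ID1, ITGAM, JUP, LRIG2, LTBR, MAGEA6, MAGEC2, PCDH1, PFKL, PMVK, ROR1, SPOCK1, SSX1, TAB3, TNFRSF12A, VIM and XAF1. The lists were assembled with earlier results of these data known. Their counts are to be read beside the shares over all genes, 20.7% higher and 13.7% lower, also where these are not repeated.

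T6 was set against the other tumours directly, in the same limma fit. It differed from T2 in 1412 genes (9.46%; 6.38% higher and 3.08% lower), from T8 in 2253 (15.1%; 4.66% and 10.4%) and from T3 in 3730 (25%; 13.7% and 11.3%). Against the mean of the 3 it differed in 1437 (9.63%), 797 higher (5.34%) and 640 lower (4.29%), of which 21 and 19 reached log2 1. Without T6 replicate 1 these counts were 449 (T2), 940 (T8), 2196 (T3) and 389 (the mean), and without T6 replicate 2 they were 428, 1077, 2269 and 421. The count against T2 was 777 without T2 replicate 1, and that against T8 was 1124 and 1037 without T8 replicate 1 or 2. Upward calls made up 67.4% against T2 (50.5% after repeated quantile normalisation), 30.9% against T8 (48.3%) and 54.7% against T3. Genes called T6-distinct differed from parental cells and from each of T2, T3 and T8, all in the same direction. There were 55 (0.368%), 43 higher (0.288%) and 12 lower (0.0804%). Under repeated quantile normalisation there were 61 higher and 34 lower, and after median centring 30 and 5. The count was 14 without T6 replicate 2, 18 without T6 replicate 1, 35 without T2 replicate 1, 36 without T8 replicate 1 and 33 without T8 replicate 2.

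These 55 genes were picked for their gap to the other lines, which nearly fixes that both T6 arrays lie beyond the other 8 arrays. That was so in all 55, and in 498 (3.34%, above) and 440 (2.95%, below) of all genes, and nothing is read from it. Part of the 43 were stronger forms of a change the other tumours also had: 15 were called higher than parental cells in each of T2, T3 and T8, 15 in 1 or 2 of them, and 13 (0.0871% of all genes) in none. Over all genes T2, T3 and T8 were called higher than parental cells in 17.5%, 22.1% and 28.7% and lower in 15.5%, 15.8% and 15.1%. Of the 12 lower genes 10 (0.067%) were not called lower in any other tumour. The median difference from parental cells in the 43 genes was 1.001 in T6 and 0.43, 0.15 and 0.26 in T2, T3 and T8. In the 12 genes it was -0.40 in T6 and 0.06, -0.01 and -0.04 in the others.

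NHSL2, a relative of the actin regulator NHS, had the widest gap. Its arrays read 7.12 and 7.01 in T6, 5.32 and 5.31 in parental cells, 5.69 and 5.88 in T2, 5.33 and 4.99 in T3 and 5.61 and 5.41 in T8. T6 stood 1.58 ± 0.12 above the mean of the other tumours (adjusted p = 7.78e-07) and was T6-distinct under all 20 settings tried, the reported one included, but the other probe set of the gene showed no rise (-0.23 against parental cells). TENM2, a teneurin of cell contacts and synapses, read 5.60 and 5.90 in T6 and 4.07 and 4.03 in parental cells, at 3.73 and 3.93 in T2, 4.63 and 4.74 in T3 and 4.30 and 4.16 in T8 (1.50 ± 0.12, adjusted p = 2.96e-06). Only the T6 arrays reached log2 5, the level a gene had to reach on 2 arrays to be tested, so TENM2 was tested only through the line in which it is high, alone among the 55. It was not tested with this level at log2 6, and its p is no support for the gap. ARHGAP30, a GTPase-activating protein, was 8.42 and 8.33 in T6 against 5.74 and 5.16 in parental cells, and stood between at 7.27 and 7.21 in T2, 6.18 and 6.57 in T3 and 7.61 and 7.35 in T8. It held under all 20 settings, yet its 2 other probe sets differed from parental cells by -0.40 to 0.18. CCR7, the chemokine receptor that guides cells to lymph nodes, read 6.10 and 6.03 in T6 and 4.22 and 4.48 in parental cells, and 5.30 and 5.15, 4.75 and 4.76 and 5.18 and 4.68 in T2, T3 and T8 (1.10 ± 0.13, adjusted p = 0.000107). The call for CCR7 was lost without T6 replicate 1.

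VCAN, the matrix proteoglycan versican, rose from 5.40 and 5.996 to 7.54 and 7.36 (1.75 ± 0.17) and was higher than the mean of the other tumours by 1.09. Its 4 other probe sets were higher too, by 1.07 to 2.42. PTPRR, a tyrosine phosphatase that acts on ERK, read 6.98 and 6.90 in T6 and 6.48 and 6.13 in parental cells, while T2, T3 and T8 differed from parental cells by -0.06, -0.36 and -0.07. Its second probe set was higher in T6 as well (0.57 against parental cells, 0.84 against the other tumours). The antimicrobial peptide gene DEFB1 (1.22), the membrane protein gene PDZK1IP1 (0.99), the kinase gene ALPK2 (0.91), AK5 (0.94) and the cation channel gene TRPV2 (0.75) were also above the mean of the other tumours, as was the pseudogene PDCD6IPP2 (0.87), whose probes may also read its parent gene. Second probe sets of PDZK1IP1, AK5 and ALPK2 were higher than in parental cells by 1.495, 2.20 and 0.42. In the 12 higher genes with the widest gap, standard errors against the mean of the others were 0.090 to 0.14, and the highest adjusted p against a single tumour was 0.0278. In the 12 lower genes these were 0.045 to 0.13 and 0.0370. An adjusted p under 0.05 against each tumour was part of the rule that picked these genes, so these p-values are no support for the gap. Among the remaining 31 higher genes, named after their values were seen, were the inflammatory cytokine IL6, the stress cytokine GDF15, the smooth muscle actin ACTG2, the thyroid hormone receptor THRB and the endoplasmic reticulum chaperone HSP90B1. BIRC7 and NRG1, named with their lists above, also belong to these 31. IL6 read 8.38 and 8.30 in parental cells and 8.96 and 9.06 in T6, and differed from parental cells by -0.21, -0.50 and 0.10 in T2, T3 and T8. The furthest above parental cells were SLC14A1, AK5, ARHGAP30 (2.93), the glycosyltransferase gene B3GNT7 (2.49), ACTG2 (2.49) and CYRIA (2.48).

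**Figure D3:**
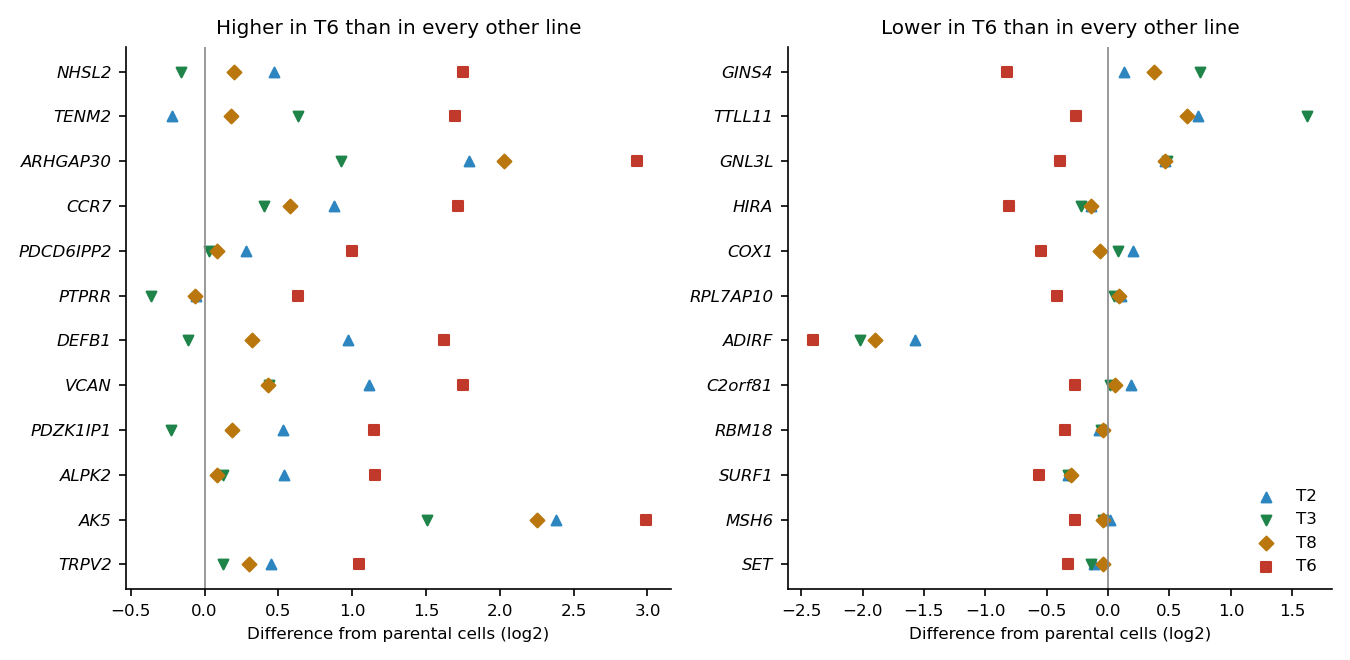
Difference from parental cells (log2, horizontal axis) in T2, T3, T8 and T6 for the 12 T6-distinct genes per direction with the widest gap to the nearest other tumour. The red T6 squares lie to the right of the other 3 tumours in the left panel and to the left of them in the right panel; in ADIRF, AK5 and ARHGAP30 the other tumours moved the same way.

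Lower in T6 than in the other lines was GINS4, a subunit of the replicative helicase, at 8.88 and 8.85 in T6, 9.71 and 9.68 in parental cells, 9.80 and 9.84 in T2, 10.47 and 10.41 in T3 and 9.66 and 10.47 in T8 (-1.24 ± 0.13 against the other tumours, adjusted p = 3.78e-05). TTLL11, a tubulin ligase, differed from parental cells by -0.27 in T6 and by 0.73, 1.62 and 0.64 in T2, T3 and T8. GNL3L, a nucleolar GTPase, likewise differed by -0.39 where the others stood at 0.46, 0.48 and 0.46. In both genes the other tumours lay further above parental cells than T6 lay below, and both calls against parental cells were lost under several settings. The 2 other probe sets of TTLL11 were lower than parental cells by a like amount (-0.42 and -0.22) but differed from the mean of the other tumours by -0.04 and -0.0046. The 3 others of GINS4 differed from parental cells by -0.31 to -0.01, and the 3 of GNL3L by -0.18 to 0.31. HIRA, a histone H3.3 chaperone, read 8.67 and 8.28 in T6 and 9.29 and 9.26 in parental cells, and its other probe set, near background, showed no fall (0.03). COX1, the mitochondrially encoded cytochrome oxidase subunit, read 13.62 and 13.62 in T6 and 14.26 and 14.07 in parental cells, and SURF1, an assembly factor for the same enzyme, read 10.06 and 10.13 in T6 and 10.64 and 10.68 in parental cells. Both T6 arrays were below all others in each, and SURF1 was also lower than parental cells in T2, T3 and T8 (-0.32, -0.33 and -0.30). ADIRF, called adipogenesis regulatory factor, fell in all 4 tumours and furthest in T6 (-2.41). The mismatch repair gene MSH6 (-0.24), the histone chaperone SET (-0.22), RBM18 (-0.29), C2orf81 (-0.35) and the pseudogene RPL7AP10 (-0.49) lay below the other tumours by smaller amounts. Further probe sets of RBM18, SET and SURF1 were also lower than parental cells (-0.25 to -0.17), and those of MSH6 differed by -0.07 to 0.0046. SET was T6-distinct in 8 of 20 settings, C2orf81, MSH6 and SURF1 in 9 each, RBM18 in 10, TTLL11 in 11 and GNL3L in 13. VCAN was so in 13 of 20, and the other 11 of the 12 higher genes with the widest gap in 16 or more. The remaining higher genes were not followed over these settings.

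Promoter sequences of T6-distinct genes were read from RefSeq (GRCh38.p14) as the 250 bases before the gene's start, for 31 of the 43 higher and 9 of the 12 lower genes. IL6 and HSP90B1 are shown because each holds the textbook element of its gene class, and VCAN as a matrix gene whose probe sets were all higher. Capitals mark matches to CCAAT (either strand), GGGCGG (either strand, the GC box) and, on either strand, an NF-kB pattern and the endoplasmic reticulum stress element, which starts with CCAAT. The last 2 patterns and these 3 genes were chosen after values were seen. IL6 lies at chr7:22726950-22727199, HSP90B1 at chr12:103930160-103930409 and VCAN at chr5:83471494-83471743, all on the plus strand.
IL6: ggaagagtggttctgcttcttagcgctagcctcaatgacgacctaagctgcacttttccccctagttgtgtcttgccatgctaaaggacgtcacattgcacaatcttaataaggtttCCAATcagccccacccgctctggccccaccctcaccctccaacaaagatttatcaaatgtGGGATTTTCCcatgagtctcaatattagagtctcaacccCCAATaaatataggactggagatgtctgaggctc
HSP90B1: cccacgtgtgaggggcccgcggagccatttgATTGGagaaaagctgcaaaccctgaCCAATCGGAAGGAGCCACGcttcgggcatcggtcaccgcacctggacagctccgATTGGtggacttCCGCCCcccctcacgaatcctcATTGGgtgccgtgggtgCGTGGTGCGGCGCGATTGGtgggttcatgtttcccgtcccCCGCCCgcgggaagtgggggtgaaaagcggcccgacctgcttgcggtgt
VCAN: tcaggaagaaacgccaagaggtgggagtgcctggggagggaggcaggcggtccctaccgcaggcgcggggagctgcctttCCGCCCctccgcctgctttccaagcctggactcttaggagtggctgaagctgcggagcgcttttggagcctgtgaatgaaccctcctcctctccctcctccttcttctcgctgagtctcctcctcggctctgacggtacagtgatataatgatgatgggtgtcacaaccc

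The IL6 window holds 1 match to the NF-kB pattern, which 1.98% of the 11887 promoters of tested genes hold. In HSP90B1 the stress element is present on both strands, where 14 of the 11887 promoters (0.118%) hold it at all. VCAN has 1 GC box. Over the 31 higher genes CCAAT was present in 38.7% and GGGCGG in 45.2%, and over the 9 lower genes in 22.2% and 77.8%, beside 34.2% and 63.1% of all promoters. TATAAA (forward strand, near the start in classical promoters) was found in 3.23% of the higher and 11.1% of the lower genes against 4.22%, and the AP-1 pattern TGANTCA (either strand) in 3.23% of the higher genes and 0 of 9 lower against 4.43%. A match is a description of these letters, and with 31 and 9 genes each gene weighs 3.23% or 11.1%.

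Several T6-distinct genes lay on the same chromosome. Of the 43 higher genes 7 lay on chromosome 12 between PTPRR and ZNF84: PTPRR, HSP90B1, WASHC4, MTERF2, CFAP73, MLEC and ZNF84. Chromosome 12 holds 793 of the 14893 tested genes with a position. Chromosome 1, with 1507, also held 7 of the 43 and chromosome 3, with 805, held 5. Of the 12 lower genes 4, TTLL11, RBM18, SET and SURF1, lay on chromosome 9, which holds 595 tested genes, and 2 on chromosome 2. Both stretches described here are bounded by T6-distinct genes, and the counts are given with no test. Gene order came from RefSeq, and the array carries no genome build. Among the 298 other tested genes from PTPRR to ZNF84, 193 (64.8%, beside 20.7% of all genes) were higher than in parental cells. Lower were 15 (5.03%, beside 13.7%), and the median was 0.40 where all genes had -0.01. The same stretch had medians of 0.27, 0.23 and 0.40 in T2, T3 and T8, so these tumours were also above parental cells there. T6 was higher than T2 in 36 of the 298 (12.1%, beside 6.38% of all genes) and lower in 4 (1.34%, beside 3.08%). Against T3 it was higher in 70 (23.5%, beside 13.7%) and lower in 14 (4.70%, beside 11.3%). Against T8 it was higher in 25 (8.39%, beside 4.66%) and lower in 12 (4.03%, beside 10.4%). The median differences were 0.098, 0.092 and -0.0042. Among the 139 other genes from TTLL11 to SURF1, 75 (54.0%, beside 13.7% of all genes) were lower than in parental cells. Higher were 4 (2.88%, beside 20.7%), and the median was -0.26, beside medians of -0.15, -0.29 and -0.11 in T2, T3 and T8. T6 was lower than T8 in 48 of these 139 (34.5%, beside 10.4% of all genes) and lower than T2 in 8 (5.76%, beside 3.08%). Against T3 it was lower in 5 (3.60%, beside 11.3% of all genes) and higher in 18 (12.9%, beside 13.7%), with a median difference of 0.0050. DNA copy number was not measured, and its part in these differences was not tested.

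Over whole chromosomes, 49.4% of the 793 tested genes of chromosome 12 rose in T6, beside 20.7% of all genes. Of those of chromosome 7 38.1% fell and of those of chromosome 9 32.3%, beside 13.7% of all genes. The median difference from parental cells on chromosome 12 was 0.23 in T6 and 0.23, 0.05 and 0.18 in T2, T3 and T8. On chromosome 7 it was -0.21 in T6 and -0.23, -0.15 and -0.14 in these tumours, and on chromosome 9 -0.15 and -0.07, -0.17 and -0.06. Running medians over 21 neighbouring genes lay between -0.34 and 0.44 at the 1 and 99 percentiles. The highest, 0.70, ran from JRKL to KBTBD3 on chromosome 11, where 14 of 21 genes rose and the others were not called. This stretch, picked for its value and given with no test, holds YAP1 (0.27), BIRC2 (0.26), the metalloproteinases MMP10, MMP1 and MMP3, the growth factor gene PDGFD (1.19), and the caspase genes CASP4, CASP5 (-0.17, not called) and CASP1 with CARD16 (2.03). Its medians in T2, T3 and T8 were 0.63, 0.61 and 0.48, and that of T6 was 0.37 without parental replicate 2 and 0.27 without the less specific probe sets. Next was OSBPL8 to POC1B on chromosome 12, at 0.67 (15 rose, 2 fell; 0.45, 0.59 and 0.61 in the other tumours). The lowest were LINC01560 to HDAC6 on the X chromosome at -0.52 (15 fell; -0.61, -0.65 and -0.62 in the others), which came to -0.34 with probe sets averaged, and MTPN to DENND2A on chromosome 7 at -0.51 (13 fell, 1 rose; -0.52, -0.49 and -0.35).

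**Figure D4:**
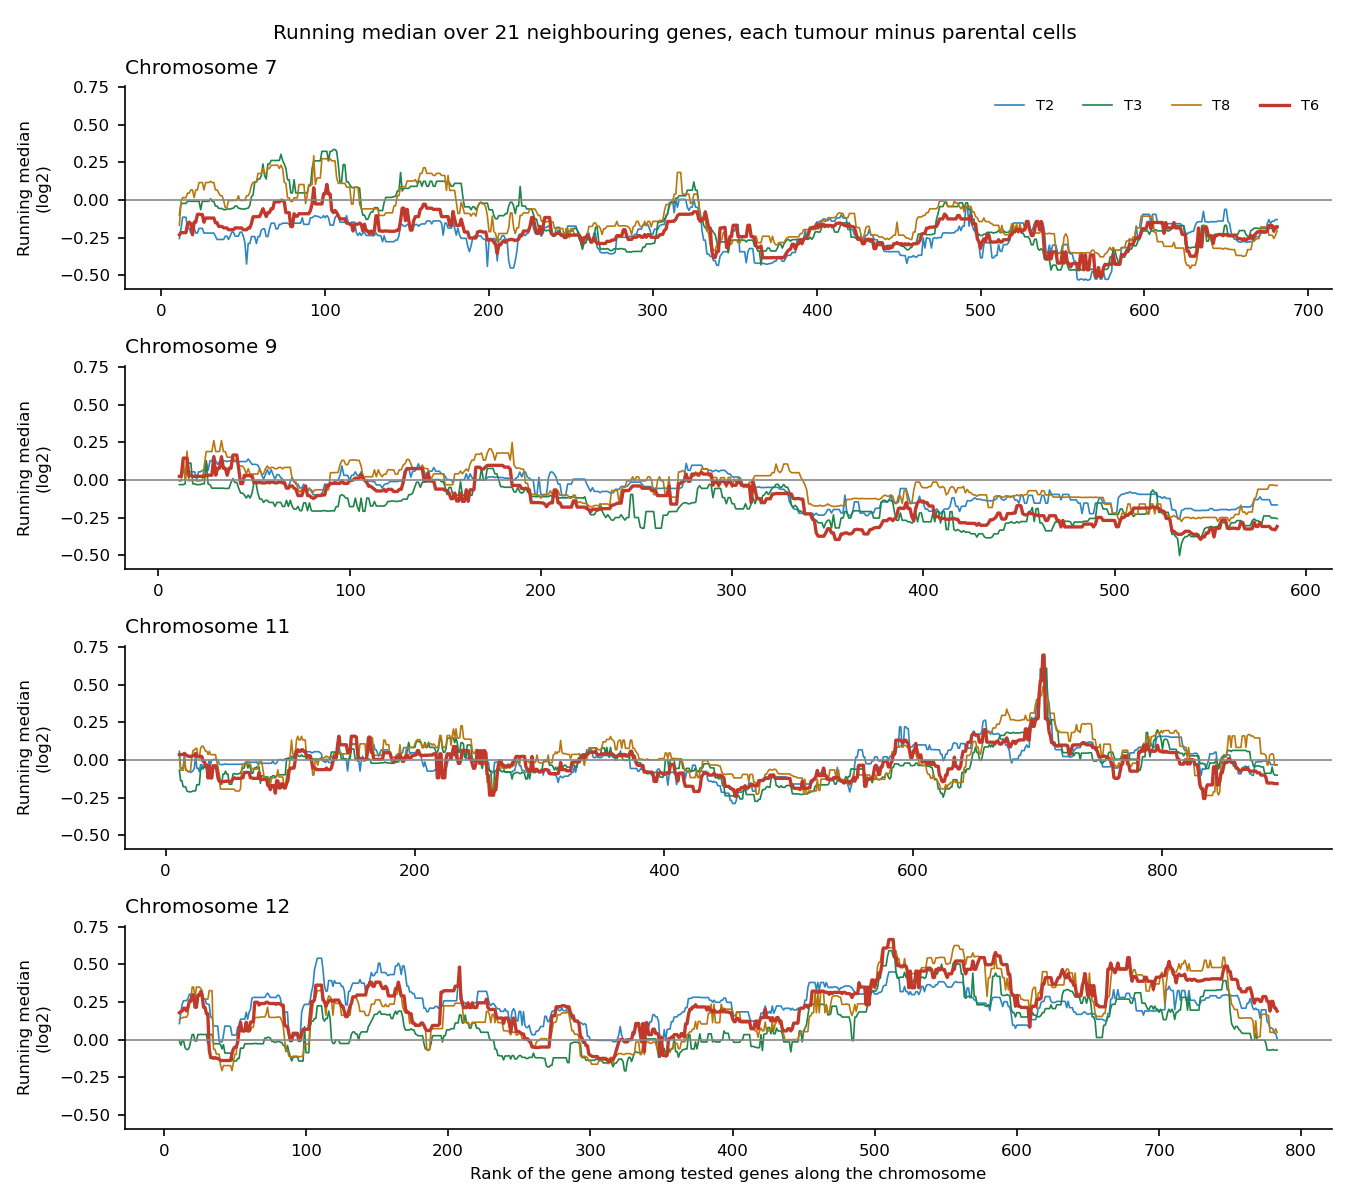
Running median over 21 neighbouring tested genes of the difference from parental cells (log2, vertical axis) along chromosomes 7, 9, 11 and 12, by gene rank, for T6 (thick red) and T2, T3 and T8 (thin). The red line lies above 0 over most of the right part of chromosome 12 and below 0 over the right part of chromosome 9, and peaks at 0.70 on chromosome 11; the other tumours follow much of its course.

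**Figure D5:**
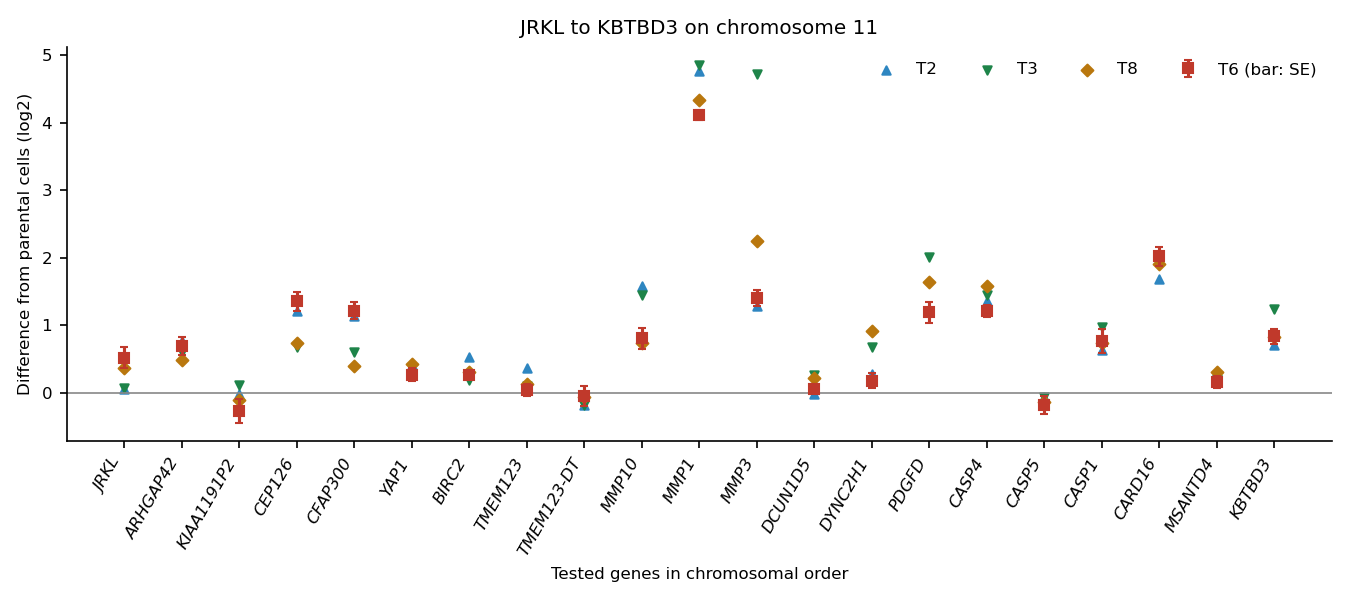
Difference from parental cells (log2, vertical axis) of the 21 tested genes from JRKL to KBTBD3 on chromosome 11, in order, for T6 (squares with SE) and T2, T3 and T8. MMP1 reaches 4.12 in T6, and KIAA1191P2, TMEM123-DT and CASP5 lie below 0.

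Against the mean of the other tumours, window medians ran from -0.16 to 0.16 at the same percentiles. The highest lay on the X chromosome, from TMSB4X to TXLNG (0.44, 12 of 21 genes higher) and from LINC00685 to PNPLA4 (0.43, 13 higher). There the medians of T6 minus T2 were near 0 (-0.02 in both), while T3 and T8 were below parental cells (-0.40 and -0.24 in the first, -0.71 and -0.43 in the second). The lowest, RFX1 to HACL2 on chromosome 19 and TMEM131L to TRIM61 on chromosome 4, were both at -0.21, again with T2 near T6 (0.04 and 0.07). Windows where T6 differed from each of T2, T3 and T8 were sought after these values were seen and were smaller. On chromosome 3, from ARL6IP5 to C3orf38, T6 exceeded the 3 tumours by medians of 0.17, 0.19 and 0.16, and 14 of 21 genes were higher than in parental cells. On chromosome 12, from EP400 to ZNF10 around ZNF84, the medians were 0.15, 0.38 and 0.17. Downward, SCGN to H3C8 on chromosome 6, which takes in histone genes that are near-identical, had medians of -0.16, -0.31 and -0.25, and NEUROG1 to ETF1 on chromosome 5 of -0.14, -0.14 and -0.15.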

How the data were processed

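The deposited table gives log2 expression of 54675 probe sets on 10 Affymetrix arrays, 2 for each of 5 lines. The submitters' processing notes name RMA, affy and limma. Versions and RMA settings are not given in the sources used here. RMA corrects background, quantile-normalises and summarises probes, which pulls array distributions together and can shift many small differences one way. The notes name no annotation, so probe sets were named through GEO's platform annotation and symbols updated through RefSeq (41037 probe sets). A gene symbol stood on 41091 probe sets; 1801 with several, 11721 with none and 62 controls were left out. Each of 19775 genes was represented by its brightest probe set (by mean), and 14929 genes at log2 5 on at least 2 arrays were tested.

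All 10 arrays entered 1 fit with a mean per line (limma 3.58.1 in R 4.3.3, eBayes with a trend, 5 residual degrees of freedom), with two-sided p-values adjusted by Benjamini-Hochberg over the 14929 genes at 0.05. Differences are means of log2 values with the moderated SE. Error comes from 2 arrays per line, and this number limits the precision. A T6-distinct gene passed that threshold against parental cells, T2, T3 and T8 in 1 direction. The script was tested on simulated data.

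Named genes were the 12 largest differences per direction among called genes with no overlap of arrays, the 12 T6-distinct genes per direction with the largest smallest gap to T2, T3 and T8, up to 3 called members per direction of each of 40 gene lists, or the 2 largest where none was called, and 12 genes of the drug's pathway and of the study's interest. BIRC3 and RIPK1, among those 12, were not analysed here, and 1 of the 40 lists is not reported here. The members and lists were chosen with earlier results of these data known. Alternatives were repeated quantile normalisation, median centring, no filter or log2 6, the mean over probe sets, no less specific probe sets (names ending in _s_at, _x_at or _a_at), no trend, a threshold of 0.01, the replicate number as a block, the 4 arrays alone, and each array left out in turn.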

Additional observations from a re-analysis of the deposited data

Results flagged for a closer look

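For 24 T6-distinct genes the difference between T6 and parental cells itself differed from that in the other tumours, tested directly as T6 minus the mean of T2, T3 and T8 in limma (Benjamini-Hochberg adjusted p at most 0.0106). Both T6 arrays were higher than all other arrays in each of the first 12 and lower in each of the last 12. These genes were picked for this gap, so the values are a description.

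Higher in T6 were NHSL2 by 1.58, TENM2 by 1.50, ARHGAP30 by 1.35, DEFB1 by 1.22, CCR7 by 1.10, VCAN by 1.09, PDZK1IP1 by 0.99, AK5 by 0.94, ALPK2 by 0.91, PDCD6IPP2 by 0.87, PTPRR by 0.79 and TRPV2 by 0.75, on the log2 scale. Of these, TENM2 is the one gene in which no array outside T6 reached log2 5, so it passed the filter only through T6.

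Lower in T6 were TTLL11 (-1.27), GINS4 (-1.24), GNL3L (-0.86), HIRA (-0.64), COX1 (-0.62), ADIRF (-0.58), RPL7AP10 (-0.49), C2orf81 (-0.35), RBM18 (-0.29), SURF1 (-0.25), MSH6 (-0.24) and SET (-0.22). TTLL11, RBM18, SET and SURF1 lie on chromosome 9, in a stretch where 54.0% of the other genes were lower in T6 than in parental cells, beside 13.7% of all genes and 32.3% of chromosome 9. The other tumours were low there too: the median difference from parental cells was -0.26 in T6 and -0.15, -0.29 and -0.11 in T2, T3 and T8.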

How the results depend on the processing

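Of 4732 single-gene values under alternatives, 4510 kept their direction and side of the threshold, 206 fell short of it, 3 passed it newly and 13 changed sign. KRT19 turned to -0.075 with probe sets averaged and MMP25 to 0.24 without the less specific probe sets, neither called. The other 11 were of genes called in neither setting. With probe sets averaged CASP8 came to -0.071, CFLAR to -0.14 and EGFR to 0.032. After repeated quantile normalisation CFLAR came to -0.0091, LRIG1 to -0.023 and TNF to 5.6e-05. EGFR came to 0.018 after median centring and 0.053 without the less specific probe sets, and with each array left out in turn LRIG1 ran from -0.0915 to 0.21 (-0.059 without parental replicate 2) and TNF from -0.19 to 0.029. The 55 T6-distinct genes became 95 after repeated quantile normalisation (47 shared), 35 after median centring (35 shared) and 35 without the less specific probe sets (33 shared). After median centring 767 genes differed from the mean of the other tumours, 776 from T2 and 1376 from T8. Without the less specific probe sets 922 differed from T2 and 1492 from T8, and without a trend 886 from T2. With probe sets averaged 276 genes differed from parental cells by log2 1 or more. At 0.01 the counts were 3305 (parental), 2342 (T3), 1158 (T8), 593 (T2), 696 (mean of the others) and 25 (T6-distinct). The cause of these shifts was not tested. Leaving out each array gave 3255 to 5585 calls against parental cells, 407 to 450 at log2 1, 428 to 1631 against T2, 2196 to 4040 against T3, 940 to 2638 against T8, 389 to 1646 against the mean of the others and 14 to 65 T6-distinct genes. A line left with 1 array was assumed to vary like the other lines. Values near log2 5 lie near background and limit what can be read from dim genes. With replicate number as a block, 4830 genes differed from parental cells and 48 were T6-distinct (44 shared). The labels do not say whether the numbers pair the samples. Deviations of same-numbered arrays correlated between -0.39 and 0.50 over the 10 pairs of lines, with 4 above 0.1. For T6 and parental cells the value was 0.15. What these correlations stem from was not tested.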
